A study of Mus musculus with 2 samples.

Results

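The genes described here are the adult hemoglobin chains Hba-a1, Hba-a2, Hbb-bs and Hbb-bt, myoglobin (Mb), cytoglobin (Cygb) and Alas2, the red cell enzyme of the first step of heme synthesis. These 7 genes were taken by name out of 15848 annotated genes with a read, with all their transcript models. They were measured by long-read RNA sequencing, in which 1 read stands for 1 cDNA, in whole heart of untreated female B6CASTF1/J mice aged 2 months, the first-generation cross of a C57BL strain with the CAST strain. There was 1 group, heart, with replicate 1 and replicate 2, and 2 µg of total RNA went into each library. The titles of the animals carry the numbers 3 and 4, but the library text named animal 3 for both and both carried 1 donor identifier. The spread between the replicates may therefore be technical. Reads had been assigned against a reference based on the C57BL/6J genome, and the parental alleles were not told apart in these counts.

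Hemoglobin carries oxygen in red blood cells as a tetramer of alpha and beta chains, each holding a heme, and in adult mice its messenger RNA is made in red cell precursors and persists in young circulating red cells. Myoglobin is the related oxygen-binding protein of heart and skeletal muscle, and cytoglobin is a low-abundance globin of fibroblast-like cells and pericytes in many tissues. Heme is built from glycine and succinyl-CoA by a pathway that starts and ends in mitochondria, and its first step is carried out by Alas1 in most cells and by Alas2 in developing red cells.

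Replicate 1 held 859191 reads on annotated genes and replicate 2 held 707758, so that 1 read equalled 1.16 CPM (counts per 1000000 of these reads) in the first and 1.41 CPM in the second. With no read at all, a gene could still lie as high as 3.49 CPM in replicate 1 and 4.24 CPM in replicate 2. Over 7260 genes whose counts summed to at least 20, squared differences between the libraries averaged 1.81 times what counting error alone would give. This is the chi-square per degree of freedom. Intervals, floors and p-values cover counting error only. Heart muscle markers were present (8 of 8 genes of the list with reads, summed levels of 50117 CPM in replicate 1 and 52726 CPM in replicate 2). The skeletal muscle myosins Myh1, Myh2 and Myh4 had 0 reads in both libraries.

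The paired copies of the alpha and of the beta chain are close to identical in coding sequence, which bears on how reads were divided between them. The coding parts of the leading models of Hba-a1 and Hba-a2 are 426 bases long and differ at 1 base, C381T, counted from 1 at the first coding base with the Hba-a1 base first. It is the last base of a codon, GAC in Hba-a1 and GAT in Hba-a2. The coding parts of the leading models of Hbb-bs and Hbb-bt are 441 bases long and also differ at 1 base, C417T with the Hbb-bs base first, at the last base of GCC in Hbb-bs and GCT in Hbb-bt. Outside the coding part the alpha copies agree over all bases that both models have, with 161 more bases at the 5′ end of the Hba-a1 model and 16 more at the 3′ end of the Hba-a2 model. The beta copies agree over only 14 bases before the start codon and 3 after the coding part, counting the bases next to it. The coding part is counted without the stop codon, so these 3 bases are the stop codon itself. The 4 stretches are shown, from GENCODE M21 transcripts on GRCm38 (mm10), because the capital in each is the single coding base that separates a gene from its copy.
Hba-a1 (chr11:32284323-32284363, plus strand): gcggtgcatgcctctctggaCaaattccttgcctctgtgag
Hba-a2 (chr11:32297140-32297180, plus strand): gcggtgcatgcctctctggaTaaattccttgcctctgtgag
Hbb-bs (chr7:103826672-103826712, minus strand): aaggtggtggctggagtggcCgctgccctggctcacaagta
Hbb-bt (chr7:103812663-103812703, minus strand): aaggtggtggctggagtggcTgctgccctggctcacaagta

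The 2 alpha genes lie on chromosome 11 and share more than their transcripts. In the RefSeq promoter table (GRCm38.p6), which held 6 of the 7 genes, Hba-a1 and Hba-a2 were identical over 282 bases before the start codon. The 250 bases before the RefSeq starts of Hbb-bs and Hbb-bt matched in 70.9% of aligned columns. The 100 bases before the RefSeq start are shown for an alpha and a beta gene, since all 4 adult globin genes held the same pair of short motifs there, ATATAA and CCAAT, given in capitals.
Hba-a2 (chr11:32296392-32296491, plus strand): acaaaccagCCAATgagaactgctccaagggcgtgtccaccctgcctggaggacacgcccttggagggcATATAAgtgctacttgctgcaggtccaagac
Hbb-bs (chr7:103827929-103828028, minus strand): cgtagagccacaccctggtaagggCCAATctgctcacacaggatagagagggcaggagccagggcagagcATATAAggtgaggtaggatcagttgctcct
On both strands, ATATAA occurred in 3.74% and CCAAT in 18.9% of 32851 such windows. CACCC occurred in the windows of all 4 adult globin genes and of Alas2, and in 27.2% of all windows. The letters GATAA were found in the Alas2 window on the minus strand and in 8.55% of all windows, but not in the 4 globin windows. A match is a run of letters and not a shown binding site. The leading model begins 161 bases upstream of the RefSeq start in Hba-a1, 73 in Hbb-bt, 42 in Alas2 and 3 in Hba-a2. The windows of these genes therefore overlap their leading models.

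The alpha chains gave the most reads. Hba-a1 (ENSMUSG00000069919.7, chr11:32283511-32284465, plus strand) had 15180 reads, or 17668 CPM, in replicate 1 and 11132 reads, or 15729 CPM, in replicate 2. Its mean of 16698 ± 1371 CPM (SD, n = 2, as for all means here) was the third highest of all annotated genes, between Slc25a4 (20201 ± 66.9 CPM), the mitochondrial ADP/ATP carrier, and Atp2a2 (11181 ± 1572 CPM), the calcium pump of the sarcoplasmic reticulum. Hba-a2 (ENSMUSG00000069917.7, chr11:32296489-32297298, plus strand) had 4220 reads, or 4912 CPM, in replicate 1 and 2983 reads, or 4215 CPM, in replicate 2. Both alpha genes were higher in replicate 1, and the exact 95% interval of the ratio of replicate 1 over replicate 2 ran from 1.10 to 1.15 for Hba-a1 and from 1.11 to 1.22 for Hba-a2.

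Summed over its copies the beta chain was lower than the alpha chain. Hbb-bs (ENSMUSG00000052305.6, chr7:103826534-103828096, minus strand) had 6759 reads, or 7867 CPM, in replicate 1 and 5623 reads, or 7945 CPM, in replicate 2. Its level was almost the same in both libraries and was the ninth highest of all genes, between Cox4i1, a cytochrome c oxidase subunit (8247 ± 1238 CPM), and Ckm, muscle creatine kinase (7356 ± 25.2 CPM). Hbb-bt (ENSMUSG00000073940.3, chr7:103812524-103813996, minus strand) had 1175 reads, or 1368 CPM, in replicate 1 and 873 reads, or 1233 CPM, in replicate 2. It ranked 100 among all genes, beside Hspa5, a chaperone of the endoplasmic reticulum (1316 ± 264 CPM), and Ctsb, a lysosomal protease (1298 ± 11.3 CPM).

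Together the 4 adult globin genes accounted for 3.18% of annotated-gene reads in replicate 1 and 2.91% in replicate 2 (Wilson 95% intervals 3.14 to 3.22 and 2.87 to 2.95), or 30468 ± 1904 CPM. The whole set of 7 genes took 3.66% in replicate 1 and 3.38% in replicate 2. In whole tissue fewer cells of a type and less RNA per cell cannot be told apart, so these shares do not count red cells.

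Myoglobin stood among the adult globins. Mb (ENSMUSG00000018893.15, chr15:77015487-77050670, minus strand) had 3709 reads, or 4317 CPM, in replicate 1 and 2932 reads, or 4143 CPM, in replicate 2. Hba-a2 was above Mb in each library, but their counting intervals overlapped in replicate 2 (3994 to 4295 CPM for Mb and 4065 to 4369 CPM for Hba-a2), whereas those of every other neighbouring pair of the 7 genes were apart in both libraries. Per kb of read-weighted mean model length Mb and Hba-a2 lay further apart. Mb had 6324 CPM per kb in replicate 1 and 5824 in replicate 2, against 8906 and 7655 for Hba-a2. The mean length for Mb, 683 bases in replicate 1 and 711 in replicate 2, counts a 331-base single-exon model described below. The leading annotated model of Mb has 1104 bases. On annotated models alone, with CPM taken on the smaller total of annotated-model reads, Mb was at 2615 ± 75.6 CPM and Hba-a2 at 5967 ± 635 CPM. The 4230 ± 123 CPM of Mb on all models has a larger total and is not on that scale. Of the reads of Mb, 1672 of 3709 in replicate 1 and 1429 of 2932 in replicate 2 lay on annotated models. Next above Mb in the order of all genes stood the glycolytic enzyme Aldoa (4355 ± 74.5 CPM) and next below it Cox6a2, a striated muscle subunit of cytochrome c oxidase (3720 ± 528 CPM).

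Cygb (ENSMUSG00000020810.5, chr11:116645595-116654313, minus strand) was the lowest of the set. It had 53 reads, or 61.7 CPM, in replicate 1 and 65 reads, or 91.8 CPM, in replicate 2. It was at 76.8 ± 21.3 CPM (Poisson 95% intervals 46.2 to 80.7 CPM in replicate 1 and 70.9 to 117 CPM in replicate 2) and had the widest spread of the 7 genes relative to its mean. The ratio of replicate 1 over replicate 2 was 0.672, with an exact 95% interval of 0.458 to 0.981. Alas2 (ENSMUSG00000025270.13, chrX:150547375-150570638, plus strand) had 355 reads, or 413 CPM, in replicate 1 and 322 reads, or 455 CPM, in replicate 2. It ranked 308 among all genes, next to Pygm, the muscle glycogen phosphorylase (435 ± 34.2 CPM).

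From high to low the order was Hba-a1, Hbb-bs, Hba-a2, Mb, Hbb-bt, Alas2 and Cygb. Hba-a1 was 2.11 times Hbb-bs, Mb was 3.25 times Hbb-bt, Hbb-bt was 3.00 times Alas2 and Alas2 was 5.66 times Cygb in mean CPM. Divided by the read-weighted mean length of the models the order was the same, with 24110 CPM per kb for Hba-a1, 6074 for Mb, 219 for Alas2 and 34.5 for Cygb.

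**Figure D1:**
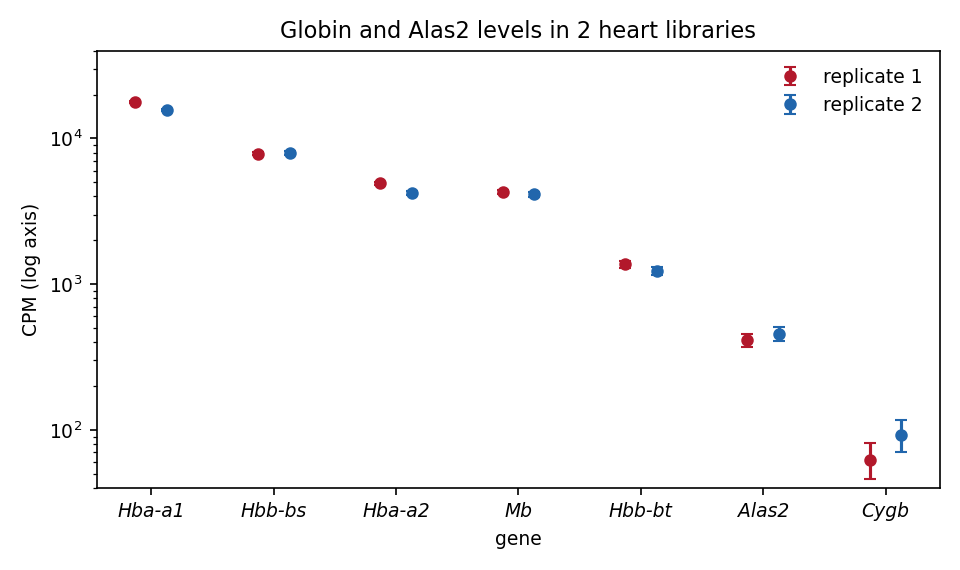
Level of each gene in CPM (log axis), with replicate 1 and replicate 2 as points and Poisson 95% intervals as bars; genes run from high to low mean. Hba-a1 lies at 17668 and 15729 CPM, Cygb at 61.7 and 91.8 CPM, and the bars of Hba-a2 and Mb overlap in replicate 2.

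The libraries were compared gene by gene with an exact binomial test (two-sided, conditional on a gene's total), adjusted by Benjamini-Hochberg over the 9334 genes with a total of 10 reads or more. It compares the reads of these libraries and not conditions. Of the 7 genes, 2 passed at an adjusted p below 0.05, against 1.15% of all genes. Both were alpha chains and both were higher in replicate 1, as were 0.75% of all genes, while 0 members were lower against 0.396% of all genes. Hba-a1 was 1.12-fold higher in replicate 1 (log2 ratio 0.17, adjusted p = 1.55e-17) and Hba-a2 was 1.17-fold higher (log2 ratio 0.22, adjusted p = 6.74e-08). No member passed with a fold of at least 2, as 0.321% of all genes did.

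The power of this test grows with the read count, and 24.9% of the 221 genes with a total of 1000 reads or more passed, a comparison chosen after the data were seen. Of the 5 members with that many reads, Hba-a1 and Hba-a2 passed and Hbb-bs, Hbb-bt and Mb did not. The log2 ratio was -0.01 for Hbb-bs (adjusted p = 1.00), 0.15 for Hbb-bt (adjusted p = 0.433) and 0.06 for Mb (adjusted p = 0.691). Cygb had a log2 ratio of -0.57 (adjusted p = 0.502, unadjusted p = 0.0333) and Alas2 one of -0.14 (adjusted p = 0.858), against a median of -0.05 over all genes tested. With DESeq2 size factors Hbb-bt (adjusted p = 0.0316) and Mb (adjusted p = 0.0113) also passed, and with edgeR's exact test at a preset variation of 0.1 or 0.2 no member did.

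**Figure D2:**
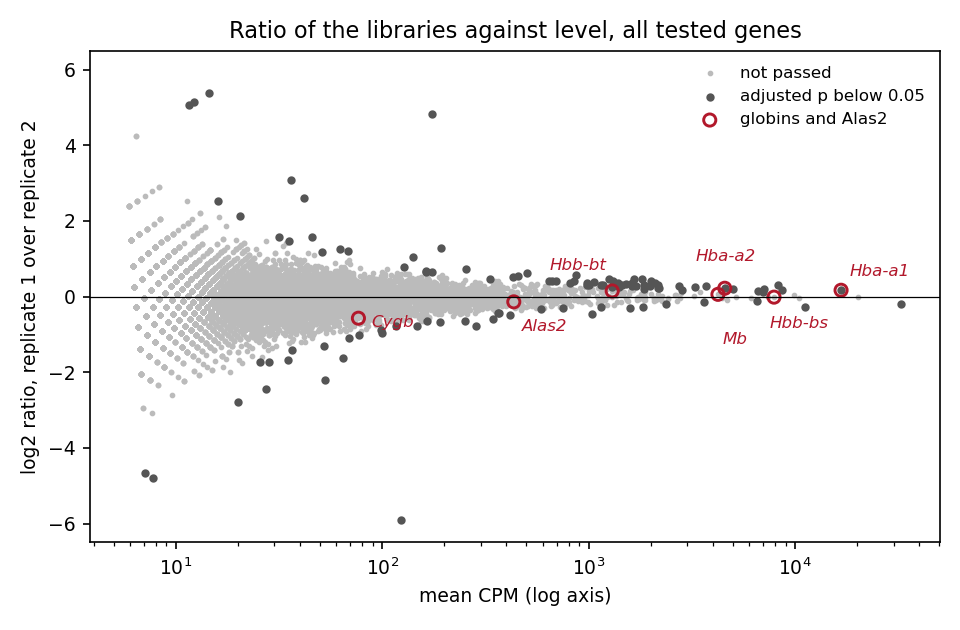
Log2 ratio of replicate 1 over replicate 2 against mean CPM (log axis) for 9334 genes; dark points passed at an adjusted p below 0.05 and red rings mark the 7 genes. The ringed genes lie between -0.57 for Cygb and 0.22 for Hba-a2, and Hba-a1 and Hba-a2 are the ringed genes that passed.

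Shares within a library do not depend on its total. Hba-a1 held 78.2% of alpha globin reads in replicate 1 and 78.9% in replicate 2 (Wilson 95% intervals 77.7 to 78.8 and 78.2 to 79.5), a difference of -0.62 percentage points that did not pass Fisher's exact test (p = 0.174 adjusted over the 3 shares). Hbb-bs held 85.2% of beta globin reads in replicate 1 (84.4 to 86.0) and 86.6% in replicate 2 (85.7 to 87.4). That difference of -1.37 points passed Fisher's exact test (adjusted p = 0.0300) but not on annotated models alone (-1.19 points, adjusted p = 0.0660). The leading copy thus held most reads of either chain, in both libraries. As a caution, reads may have been divided between copies of near-identical coding sequence in ways the sources used here do not give. Those sources also do not give how reads of CAST alleles were placed between the copies.

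Alpha reads exceeded beta reads. They made up 71.0% of adult globin reads in replicate 1 (70.4 to 71.5) and 68.5% in replicate 2 (67.8 to 69.1), or 2.45 and 2.17 alpha reads per beta read. The difference of 2.49 points passed Fisher's exact test (adjusted p = 1.28e-08). It exceeds counting error in these 2 libraries, with no further replicate to set its spread against.

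The other globin genes were near the floor. Of 11 symbols on the list, 8 were in the annotation and 2 had a read: Hbq1a, a theta globin of the alpha cluster, with 2 reads in replicate 1 and 5 in replicate 2, and Hbq1b, its copy, with 1 read in each. The embryonic chains Hba-x, Hbb-y and Hbb-bh1, the gene Hbb-bh2, Hbb-bh0, which is annotated as a pseudogene, and neuroglobin (Ngb) had 0 reads in both. In the alpha cluster Nprl3, whose introns hold the distant enhancers of the alpha globin genes, had 37 reads in replicate 1 and 38 in replicate 2. Genes on the opposite strand within the bounds of a member added little, the highest being Apex2, a DNA repair nuclease next to Alas2, with 7 reads in replicate 1 and 2 in replicate 2.

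Most red cell markers other than hemoglobin were low or absent. Of 25 genes on the list 18 had a read, 8 had at least 10 reads in total and 0 passed the test in either direction (median log2 ratio 0.19, against -0.05 over all genes). Over all 9334 genes the exact binomial test passed 1.15%, and 796 genes had an unadjusted p below 0.05. The summed level of the list was 876 CPM in replicate 1 and 820 CPM in replicate 2. Its highest members were Ank1, an ankyrin of the red cell membrane that striated muscle also makes (292 reads in replicate 1 and 211 in replicate 2), the mitophagy receptor Bnip3l (184 and 157) and Bpgm, which makes the metabolite that lowers the oxygen affinity of hemoglobin (129 and 98).

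Defining genes of red cell precursors lay at the floor. The anion exchanger Slc4a1, the Rh-associated glycoprotein Rhag, the transcription factors Klf1 and Nfe2, and Hemgn, Ermap and Kel had 0 reads in both libraries, and Epb42 (a membrane skeleton protein) and Gata1 (the erythroid transcription factor) had 1 read in replicate 1 and 0 in replicate 2. The platelet chemokine Pf4 had 55 reads in replicate 1 and 42 in replicate 2. Other platelet markers on the list were lower, with Ppbp at 6 and 1 reads, Itga2b at 6 and 10 and Gp9 at 1 and 1. The neutrophil genes S100a8, S100a9, Ngp and Camp had 0 in both. Of 14 markers of other blood cells 9 had a read, summing to 90.8 CPM in replicate 1 and 94.7 CPM in replicate 2. The part of blood left in the tissue in the level of the 4 globin genes and Alas2 was not tested.

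The 8 enzymes of heme synthesis on the list were detected and tested, and 0 passed in either direction, against 1.15% of all genes (median log2 ratio -0.23, against -0.05 over all genes). Alas1, the widely used first enzyme, had 647 reads in replicate 1 and 563 in replicate 2, or 774 ± 30.0 CPM. Alas2 therefore gave 35.4% of the reads of the first step in replicate 1 (32.5 to 38.4) and 36.4% in replicate 2 (33.3 to 39.6). The red cell enzyme was thus the smaller part of the pair in both libraries.

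Along the rest of the pathway Fech, which inserts iron into protoporphyrin, was the highest at 328 and 298 reads in replicates 1 and 2 (401 ± 27.8 CPM). Alad, the second enzyme, had 102 and 112 reads and Urod, which decarboxylates uroporphyrinogen, 105 and 67. Cpox had 41 and 42 reads, Uros 27 and 28, and Ppox, which oxidises protoporphyrinogen and was the lowest, 13 and 14. The first and last steps were thus the most abundant of those listed, and the other enzymes lay between 17.5 ± 3.29 CPM for Ppox and 138 ± 28.0 CPM for Alad.

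**Figure D3:**
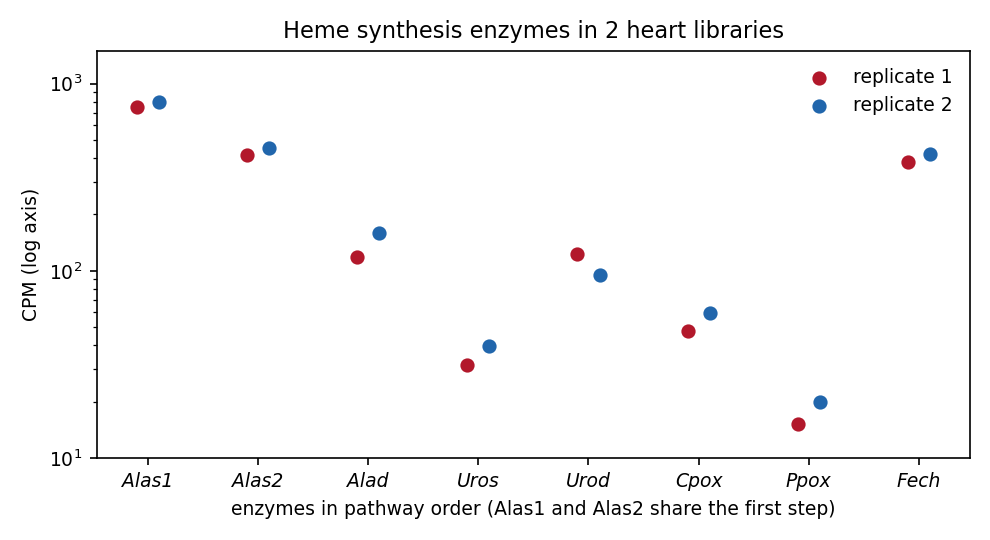
Level in CPM (log axis) of the 8 listed enzymes of heme synthesis in pathway order, with replicate 1 and replicate 2 as points. Alas1 (774 CPM on average), Alas2 (434) and Fech (401) lie above the 5 other enzymes in both libraries.

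Genes of heme transport and of cofactors of its enzymes were measured for 16 of 16 symbols, of which 12 were tested and 0 passed, against 1.15% of all genes (median log2 ratio -0.10). The highest were Clpx (345 ± 25.5 CPM), the mitochondrial unfoldase that acts on ALA synthase, Slc25a39 (190 ± 5.19 CPM), a mitochondrial carrier, and Slc48a1 (188 ± 5.91 CPM), a heme transporter. The mitochondrial iron carriers Slc25a37 and Slc25a28 stood at 26.2 ± 9.06 and 36.9 ± 2.18 CPM. Of the heme oxygenases of the breakdown list, the constitutive Hmox2 had 63 reads in replicate 1 and 48 in replicate 2. The inducible Hmox1 had 1 read in replicate 1 and 0 in replicate 2. The biliverdin reductases Blvra and Blvrb had 18 and 24 reads in replicate 1 and 17 and 13 in replicate 2, and of the 3 breakdown genes tested 0 passed, against the same 1.15% (median log2 ratio 0.11).

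Of the 4 scavenging genes 2 were tested and 0 passed, against 1.15% of all genes (median log2 ratio -0.35). They were Cd163, the macrophage receptor for hemoglobin bound to haptoglobin, with 10 reads in replicate 1 and 13 in replicate 2, and Lrp1, a receptor for heme bound to hemopexin, with 13 and 11. All 12 oxygen sensing genes were tested and 0 passed, against the same 1.15% (median log2 ratio -0.13). The highest were Egln1, the prolyl hydroxylase that marks hypoxia-inducible factor for destruction (1116 ± 94.7 CPM), Bnip3 (566 ± 19.5 CPM) and the vessel growth factor Vegfa (330 ± 14.5 CPM), while Epo, the hormone that drives red cell formation, had 4 reads in replicate 1 and 6 in replicate 2.

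The reference cell types of the muscle and stromal globins were compared in the same way. Of the 8 cardiac muscle markers 2 were higher and 1 was lower in replicate 1 (median log2 ratio 0.12): Pln, the inhibitor of the calcium pump, with 6492 reads in replicate 1 and 4680 in replicate 2 (log2 ratio 0.19, adjusted p = 1.97e-09), the light chain Myl2 with 2574 and 1744 (0.28, adjusted p = 1.17e-07), and the heavy chain Myh6 with 26157 and 24642 (-0.19, adjusted p = 4.76e-48). Over all genes 1.15% passed, and 24.9% of those with a total of 1000 reads or more. With edgeR's exact test at a preset variation of 0.1 or 0.2, 0 of the 8 passed. Skeletal muscle markers were carried by Ckm and Acta1, which heart also makes, and 0 of 2 tested passed, against 1.15% of all genes (median log2 ratio -0.01). Of 10 fibroblast and pericyte markers, the list closest to the known cells of Cygb, all were tested and 0 passed, against 1.15% of all genes (median log2 ratio -0.05), with summed levels of 1958 CPM in replicate 1 and 1975 CPM in replicate 2. The highest of them were Col3a1 (639 ± 24.1 CPM), Dcn (561 ± 15.5 CPM) and Rgs5 (378 ± 23.6 CPM).

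The deposited tables sort transcript models into annotated ones, incomplete ones that hold part of an annotated chain of introns, ones with an unannotated splice structure, and genomic ones, which match no annotated chain. Over 4651 genes with at least 20 reads in each library a median of 82.6% of reads lay on annotated models (quartiles 61.9 and 92.4). The 4 hemoglobin genes lay above that upper quartile. Hba-a1 had 99.1% of its reads on annotated models in replicate 1 and 99.0% in replicate 2 (Wilson 95% intervals 98.9 to 99.2 and 98.8 to 99.1), and Hba-a2 had 99.2% (98.9 to 99.5) and 99.1% (98.6 to 99.4). Hbb-bs stood at 96.5% and 97.1%, Hbb-bt at 94.1% and 96.0%, Alas2 at 92.1% and 91.6% and Cygb at 84.9% and 81.5%.

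Mb was unlike the others, with 45.1% of its reads on annotated models in replicate 1 (43.5 to 46.7) and 48.7% in replicate 2 (46.9 to 50.5), a share that 16.4% of genes fell below. The difference of -3.66 percentage points between the libraries did not pass Fisher's exact test after adjustment over all 4651 genes (adjusted p = 0.534), where 0.129% of genes passed, and neither did that of any of the other 6 members (adjusted p = 1.00 for each). Most of the remaining Mb reads lay on 1 single-exon model of the genomic class at chr15:77015487-77015817, with 1976 reads in replicate 1 (53.3% of Mb reads, 51.7 to 54.9) and 1446 in replicate 2 (49.3%, 47.5 to 51.1). It was the model of Mb with the most reads in both libraries. Of its 331 bases 327 lay in the 3′ UTR of the leading annotated model and 4 beyond the annotated end, and it began 111 bases after the last coding base, at the base where another annotated model of Mb ends.

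Across all 4651 genes the median share of reads on single-exon models was 3.27%. The single-exon share of Mb, 51.3% ± 2.75 on average, exceeded that of 93.4% of genes, and that of the 4 hemoglobin genes lay between 0.761% for Hba-a2 and 2.22% for Hbb-bs. In several genes the single-exon model was not the same in both libraries. Hbb-bs had a 195-base model of the genomic class with 169 reads in replicate 1 and 0 in replicate 2, and a 260-base incomplete model covering the whole last exon with 0 and 109. The class of single-exon reads thus depended on the library although both models ended at the same 3′ base.

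**Figure D4:**
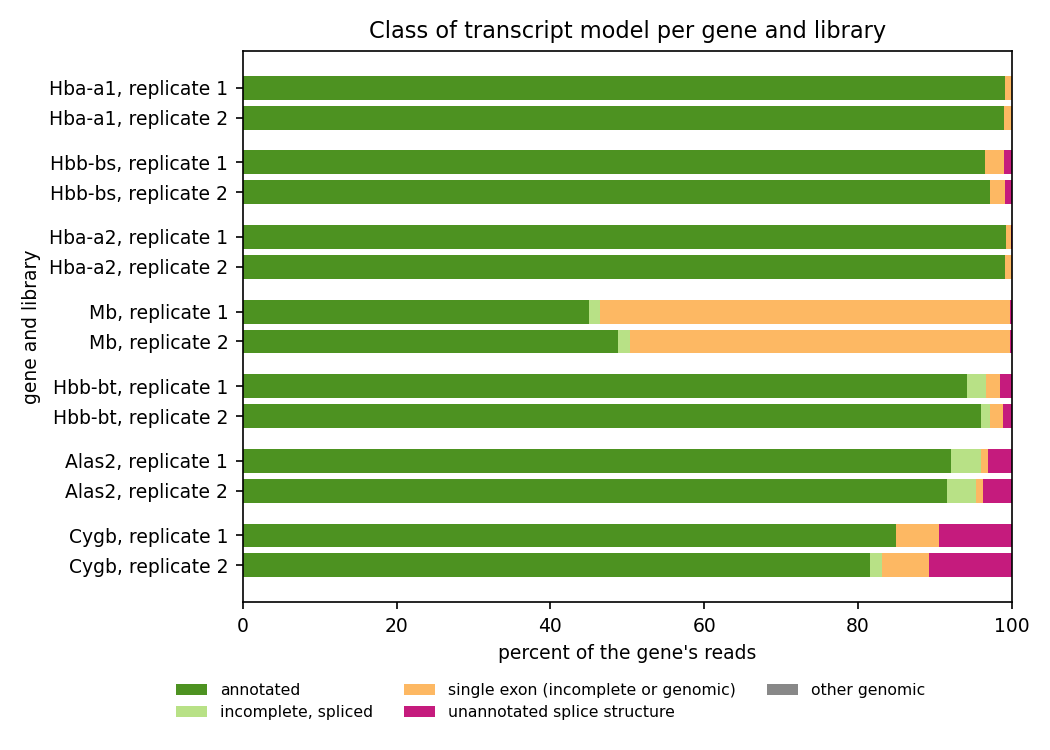
Share of each gene's reads in percent by class of transcript model, with the bar of replicate 1 above that of replicate 2. Annotated models hold 81.5% or more of the reads of every gene except Mb, where single-exon models hold 53.3% in replicate 1 and 49.4% in replicate 2.

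Most reads that were spliced followed 1 chain of introns per gene. Reads that held every intron of any annotated transcript of the gene, short transcripts included, made up 99.1% ± 0.0612 of Alas2, 99.0% ± 0.0656 of Hba-a1, 99.2% ± 0.195 of Hba-a2, 97.7% ± 0.412 of Hbb-bs, 95.6% ± 1.56 of Hbb-bt, 83.2% ± 2.38 of Cygb and 46.9% ± 2.61 of Mb. For Alas2, whose leading model has 11 exons over 2037 bases, 80.9% ± 0.270 of reads held every intron of that model. All 11 annotated introns of Alas2, both of either alpha gene and all 3 of Cygb were used, but 4 of the 8 of Mb.

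Alas2 was the member with a second annotated model in quantity. Its leading model held 88.1% of annotated reads in replicate 1 (84.1 to 91.2) and 88.1% in replicate 2 (84.0 to 91.3), and a shorter one, here the short model, held 11.6% (8.59 to 15.6) and 11.9% (8.66 to 16.1). The models part at the start of exon 3, where the short model lacks 45 coding bases, a whole number of codons. Counted over all reads crossing that intron, the inner acceptor was used by 40 of 344 reads in replicate 1 (11.6%, 8.66 to 15.5) and 39 of 309 in replicate 2 (12.6%, 9.37 to 16.8). The stretch is shown because it is what separates the 2 messages of the red cell enzyme, with the 45 bases (chrX:150552959-150553003, plus strand, GRCm38) in capitals between 20 bases of exon 2 and 20 of exon 3.
Alas2: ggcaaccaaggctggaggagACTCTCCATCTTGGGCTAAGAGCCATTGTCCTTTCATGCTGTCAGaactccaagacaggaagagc

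The other members used 1 annotated model almost alone. The leading model held 98.8% of annotated Mb reads in replicate 1 and 98.7% in replicate 2, with a 4-exon model that has a further intron near its start at 16 reads in each library. Hba-a1, Hba-a2 and Hbb-bs each have an annotated 2-exon model that begins within intron 1 and holds only intron 2, and these had 131, 33 and 118 reads in replicate 1 and 104, 23 and 92 in replicate 2. Hbb-bt and Cygb had 1 annotated model each with reads. Among the 5 members with more than 1 such model, isoform use did not differ between the libraries by Fisher's exact test, in its Monte Carlo form for Mb and Alas2, the lowest unadjusted p being 0.551.

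Unannotated introns were rare in the members and largest in share in Cygb. Of all intron crossings in replicates 1 and 2 they made up 0.0134% and 0.00911% in Hba-a1, 0.108% and 0% in Hba-a2, 0.489% and 0.447% in Hbb-bs, 0.789% and 0.584% in Hbb-bt, 0.262% and 0.204% in Mb, 0.346% and 0.447% in Alas2 and 3.36% and 3.31% in Cygb. In Cygb they were 5 and 6 crossings, of which 3 and 4 used a donor of the last intron 11 bases further into the intron. Matched by their chain of introns, or by coordinates for single exons, the 7 genes had 108 structures, annotated ones included, 34 of them in both libraries, and these 34 held 99.2% of the members' reads in either library.

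A few unannotated events recurred in both libraries. In Hbb-bs 20 of 6585 reads that crossed intron 2 in replicate 1 (0.304%, 0.197 to 0.469) and 18 of 5511 in replicate 2 (0.327%, 0.207 to 0.516) lacked 60 bases inside exon 3. In Hbb-bt 4 of 1150 reads in replicate 1 (0.348%, 0.135 to 0.891) and 6 of 857 in replicate 2 (0.700%, 0.321 to 1.52) lacked 60 bases at the same place, bases 25 to 84 of the exon. The stretch is coding, a whole number of codons long, and identical in both genes. It is shown in capitals because it starts with GT and ends with AG like an intron although it lies within exon 3 of the leading model of both genes, with 20 bases on either side.
Hbb-bs (chr7:103826690-103826789, minus strand): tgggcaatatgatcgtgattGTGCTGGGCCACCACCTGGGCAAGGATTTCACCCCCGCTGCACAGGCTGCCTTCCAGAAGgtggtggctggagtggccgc
Hbb-bt (chr7:103812681-103812780, minus strand): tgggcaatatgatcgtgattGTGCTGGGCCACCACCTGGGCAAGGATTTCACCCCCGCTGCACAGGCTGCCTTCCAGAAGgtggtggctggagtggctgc
The first 3 bases of the stretch recur directly after it, so the gap could be placed up to 3 bases further with the same read sequence. Whether the missing stretch arose in the cell or in making and aligning the cDNA was not tested.

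The first intron of the beta genes also had unannotated donors at low share. A donor 4 bases further into the intron was used by 28 of 6470 reads of Hbb-bs in replicate 1 (0.433%, 0.300 to 0.625) and 24 of 5418 in replicate 2 (0.443%, 0.298 to 0.658). In Hbb-bt the same shift was seen in 7 of 1124 reads in replicate 1 (0.623%) and 3 of 848 in replicate 2 (0.354%). A donor 4 bases the other way, within exon 1, was used by 7 reads of Hbb-bs in replicate 1 (0.108%) and 3 in replicate 2 (0.0554%). In Hbb-bt that donor had 1 read in replicate 1 and 0 in replicate 2. Whether these shifts arose in the cell or in making and aligning the cDNA was not tested. Hbb-bt further had an incomplete 2-exon model of 819 bases that retains intron 1, with 30 reads in replicate 1 and 10 in replicate 2.

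Reads joining neighbouring globin genes occurred in replicate 1 only, where 2 reads joined exons of Hba-a1 and Hba-a2 and 2 joined exons of Hbb-bs and Hbb-bt. Each of these counts is below the 3 reads that a count of 0 allows. Over both libraries the members had 97 distinct unannotated models by exon coordinates, of which 72 began and ended at boundaries of annotated exons. The ends of such models, the single-exon models of Mb and Hbb-bs included, need not be the ends of reads.

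**Figure D5:**
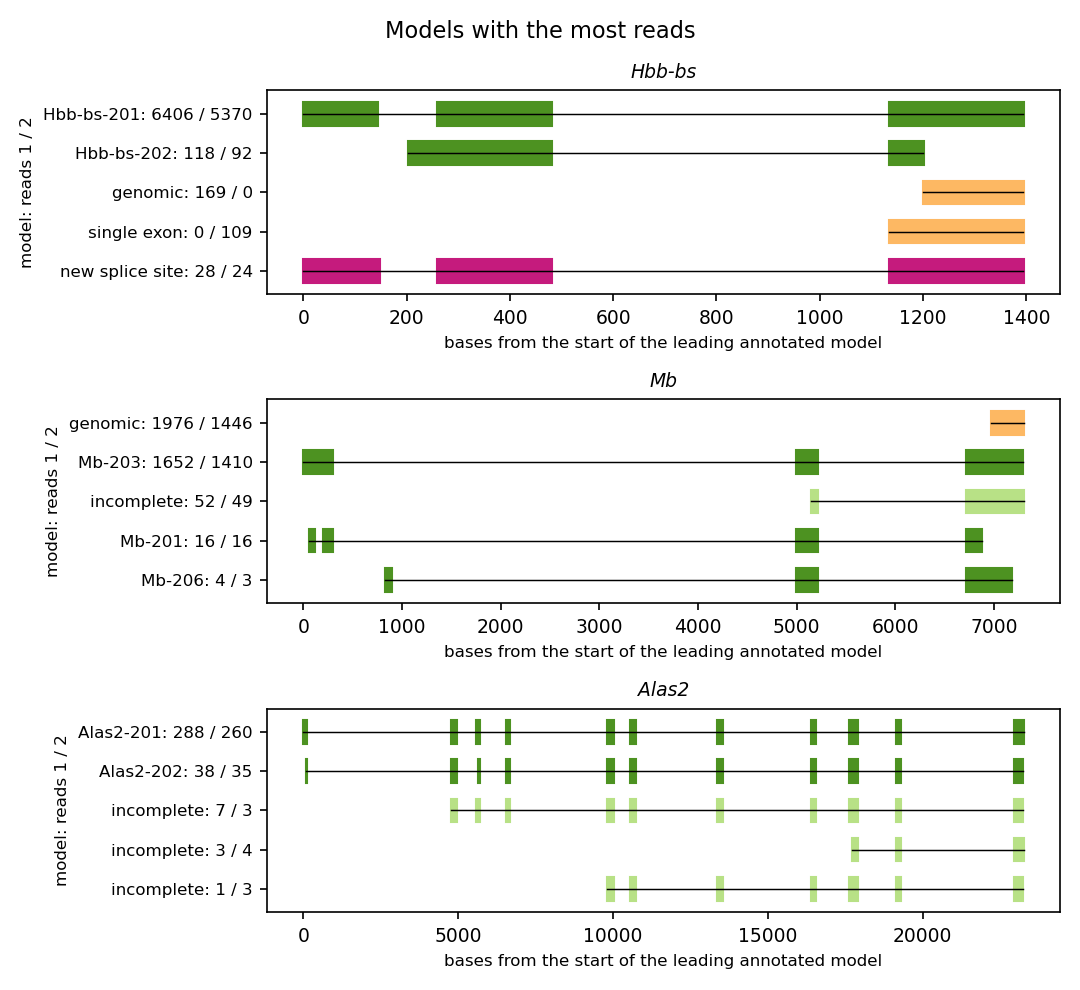
The 5 models with the most reads of Hbb-bs, Mb and Alas2, with exons as boxes by distance in bases from the start of the leading annotated model and the reads of replicate 1 and replicate 2 beside each (green annotated, pale green incomplete, orange single exon, magenta unannotated splice site). The single-exon Mb model, with 1976 and 1446 reads, sits at the 3′ end of the leading annotated model.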

How the data were processed

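Each deposited table held whole-number counts of long reads per transcript model of 1 library, not normalized and not pooled, and per the file headers also model length and exon number. Per the labels and the submitters' files, the build was mm10 and the annotation GENCODE M21, with models from TALON. The aligner, the tool versions and any filters: not given in the sources used here. Exon coordinates came from the deposited annotation files.

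The 7 genes and the 11 gene lists were chosen with earlier results of these data known. Some planned list members are not reported here. Gene counts were sums over all of a gene's models, off the spike-ins, and CPM was taken on the annotated-gene totals of 859191 (replicate 1) and 707758 (replicate 2). One group of 2 libraries left no residual degrees of freedom for edgeR's quasi-likelihood test, so genes with a total of 10 reads or more were compared by an exact binomial test, two-sided and conditional on the gene's total, with library totals as the expectation and Benjamini-Hochberg adjustment. Log2 ratios used 0.5 added reads. Shares have Wilson 95% intervals and were compared by Fisher's exact test. Annotated-model shares were planned to be adjusted over the members, but are given adjusted over all genes with at least 20 reads in each library, and isoform tests unadjusted. Monte Carlo tests used 99999 resamples (seed 1). Scaling alternatives used edgeR 4.0.16 and DESeq2 1.42.0 in R 4.3.3, and the rest scipy in Python. The tests were tried on simulated counts that varied by counting error only. That trial cannot show how they behave with the larger spread between these libraries.

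Named genes were the 7 members in full, the 2 to 5 most abundant members of each list and those that passed, the genes next in level to a member, the 5 models with the most reads, and neighbours in the globin clusters with a read. Genes named because they were at or near 0, list members of lower level, and the motifs and rare splice events shown were chosen after their values were seen.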

Additional observations from a re-analysis of the deposited data

How the results depend on the processing

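The calls between the libraries came from a test whose variance is counting error alone. The 107 genes that passed became 12 and 4 with edgeR's exact test at a preset variation of 0.1 and 0.2, and the 2 members became 0 at both, with an adjusted p of 1.00 for Hba-a1 and Hba-a2. With DESeq2 size factors 4 members passed. Of the genes that passed, 65.4% were higher in replicate 1, against 78.5% with edgeR's TMM factors and 83.4% with DESeq2 size factors. Of the genes with a total of 1000 reads or more, 55 passed. On annotated models alone 74 genes passed, on genes with at least 1 read 90. Hba-a1 and Hba-a2 passed in both of these. The summed adult globin level moved to 39503 CPM on annotated models, where the total is the smaller one of annotated-model reads, and to 47136 CPM per kb. Without 1 replicate it ran from 29122 to 31814 CPM. The difference in Hbb-bs share was -1.19 points on annotated models (adjusted p = 0.0660). The median over the 7 genes moved for the annotated share from 95.1% to 97.7% with incomplete models added, and for the spliced share from 97.7% to 98.2% with at least 1 annotated intron and to 95.2% with every intron of the leading model, a rule added after the data were seen. The count of 3 genes that passed in the lists stayed within 1.5 times under the scaling, read-minimum and annotated-model alternatives and was 0 with edgeR's exact test at 0.1 and at 0.2, added for the lists after the data were seen. The count of 0 for isoform use did not change. The cause of these shifts was not tested. No paired analysis was possible because there was 1 group. Depth limits Cygb most, with 53 and 65 reads, and the copies of alpha and beta globin limit the split within each chain.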
